A study of Mus musculus with 192 samples.

Results

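Type I interferons signal to the nucleus through a short signalling chain, and 9 genes of that chain are described here from the positions at which their transcription started in single cells. They were the receptor chains Ifnar1 and Ifnar2, the receptor-bound kinases Jak1 and Tyk2, the transcription factors Stat2, Stat3 and Irf9, and the inhibitors Socs1 and Socs3. The genes were chosen by name, and their signal by position: a start-site window counted for a gene when the RefSeq table of the authors gave it to that gene at no more than 1000 bp from an annotated start. The 9 genes were taken from 11674 genes with a listed peak by the same rule. They had 151 of the 553094 windows of the table, and 132 of these 151 were listed on the gene's own strand in at least 1 analysed cell, as 485 peaks.

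The cells were mouse embryonic fibroblasts (MEFs, connective-tissue cells grown out of embryos) of strain C57BL/6, cultured in DMEM with 10% FBS. All cells, in both groups, received IFN-beta at 100 U/ml for 1 h, so no untreated cells are among them. The labels name 96 cells naïve and 96 cells pretreated, and they do not give the earlier treatment. Each cell was 1 sample, no animal, culture or plate was named, and each group therefore counted as 1 sample with no replicate check. Intervals below are 95% intervals that cover counting error only, and no difference between the groups was tested.

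In this pathway, IFN-beta binds a receptor made of IFNAR1 and IFNAR2, whose inner ends hold TYK2 and JAK1. The kinases phosphorylate STAT proteins, and STAT2 enters with IRF9 into ISGF3, the complex that binds interferon-stimulated response elements (ISREs) in target promoters. STAT3 is also phosphorylated by many cytokine receptors, STAT dimers bind gamma-activated sites (GAS), and SOCS1 and SOCS3 bind activated kinases or receptors and damp the signal. STAT2, IRF9 and SOCS1 are themselves textbook targets of interferon, which makes part of the chain a product of its own output.

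The 250 bases before the annotated start are given for 4 of the genes. Ifnar2 is shown for its difference in share of cells, Irf9 for its start position, and Stat2 and Socs1 because they hold an ISRE core. The sequences come from RefSeq promoters on build GRCm38.p6 and are written 5′ to 3′ on the gene's strand. Capitals mark matches, on either strand, to an ISRE core (GAAA, 2 bases of any kind, GAAA) or to a GAS form (TTC and GAA with 3 or 4 bases of any kind between them). The stretches are Ifnar2 at chr16:91372533-91372782 (+), Stat2 at chr10:128270248-128270497 (+), the downstream start of Irf9 at chr14:55604329-55604578 (+) and Socs1 at chr16:10785537-10785786 (-).
Ifnar2: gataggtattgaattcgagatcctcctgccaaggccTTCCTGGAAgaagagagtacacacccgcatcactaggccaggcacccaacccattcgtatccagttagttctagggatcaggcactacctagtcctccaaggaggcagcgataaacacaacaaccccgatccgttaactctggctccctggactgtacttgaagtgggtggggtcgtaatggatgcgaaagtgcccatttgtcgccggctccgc
Stat2: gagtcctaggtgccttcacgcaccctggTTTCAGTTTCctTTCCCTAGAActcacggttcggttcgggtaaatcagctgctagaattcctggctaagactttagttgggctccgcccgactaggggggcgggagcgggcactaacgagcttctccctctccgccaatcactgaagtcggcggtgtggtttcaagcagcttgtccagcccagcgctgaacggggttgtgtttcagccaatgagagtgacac
Irf9 downstream start: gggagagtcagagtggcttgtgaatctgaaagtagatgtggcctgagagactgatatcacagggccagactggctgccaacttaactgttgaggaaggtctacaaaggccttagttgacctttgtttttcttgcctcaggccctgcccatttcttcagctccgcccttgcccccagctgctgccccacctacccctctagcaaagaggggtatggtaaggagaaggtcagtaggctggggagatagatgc
Socs1: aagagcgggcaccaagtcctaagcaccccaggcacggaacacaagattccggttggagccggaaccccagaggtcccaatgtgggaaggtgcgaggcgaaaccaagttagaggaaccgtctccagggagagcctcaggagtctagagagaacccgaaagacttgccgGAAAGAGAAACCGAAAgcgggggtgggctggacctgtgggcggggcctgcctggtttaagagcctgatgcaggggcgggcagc

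All 9 genes matched a RefSeq promoter, with 10 promoters in all because Irf9 has an upstream and a downstream start. Stat2 held an ISRE core 222 to 213 bases before its start, and beside it a GAS form with 4 spacer bases 210 to 201 bases before the start. In Socs1, a pair of ISRE cores lay 83 to 74 and 77 to 68 bases before the start and shared letters. Ifnar2 held 1 GAS form with 3 spacer bases 214 to 206 bases before its start, and Socs3 held 1 at 154 to 146 bases. No match was found in these windows of Ifnar1, Jak1, Tyk2, Stat3 or either Irf9 promoter. The Irf9 windows end at the annotated starts. They leave out the bases between the upstream start and a site 149 to 283 bp after it, which held 80.1% of naïve Irf9 promoter tags. Of 32851 promoters of the same length, 2.98% held the ISRE core and 12.4% held either GAS form. A match describes letters in a window and does not show a bound site.

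After 4 naïve and 11 pretreated cells of low depth were left out, 92 naïve and 85 pretreated cells remained. A naïve cell had a median of 2305628 tags (305066 to 3857034) and a pretreated cell 2650490 (502374 to 13174313). The authors' minimum for a peak came to 46.1 tags in the median naïve cell and 53.01 in the median pretreated cell, so a gene with no listed peak in a cell may still be expressed there. Pretreated cells listed more: a median of 6605 peaks against 5231.5, and a median of 2932 against 1967.5 genes with a promoter peak. Mitochondrial peaks were listed in 92 of 92 naïve cells and in 0 of 85 pretreated cells. The part of these differences in the results below was not tested, and a difference between the groups in file preparation cannot be told apart from the pretreatment. Of 12 fibroblast markers, 11 were listed, 8 were listed in 20 or more cells and 0 of these 8 differed 2-fold. Sparc was listed in every kept cell and Vim in all but 1. Lum was not listed, and Thy1, Dcn and Pdgfra were each listed in fewer than 20 cells. The summed signal of the list ran from 8621 to 93393 per naïve cell and from 2321 to 101417 per pretreated cell. The leukocyte marker Ptprc and all 5 epithelial markers were not listed, while the leukocyte list as a whole was listed in 23 naïve and 36 pretreated cells. Cd14 was listed in 15 naïve and 33 pretreated cells, Cd68 in 8 and 3, and Lyz2 in 1 and 0.

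One library stood apart for these genes. Naïve cell 54, with 1609278 tags and 4018 peaks, had the highest naïve signal of 5 of the 9 genes (Ifnar1, Ifnar2, Jak1, Stat3 and Irf9), and its summed signal of 22022 was above the next naïve cell's 9831. The pooled log2 ratio of each of these 5 genes is therefore also given without it, an alternative chosen after the values were seen. The cell also listed Stat2, at 316.9, and the Stat2 log2 ratio without it was 0.05. Without that cell, 4 of the 7 genes listed in 20 or more cells were again at least 2-fold higher and the median log2 ratio given below was 1.62 in place of 1.24.

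The level of a gene is given below as its promoter tags per 1000000 total tags, pooled over the cells of a group. Log2 ratios divide the pretreated level by the naïve one, after 0.5 tag was added to either sum. Of the 9 genes, 7 were listed in 20 or more of the 177 cells. Tyk2, listed in 5 cells, and Socs1, listed in 2, were not. Of the 7, Ifnar1, Ifnar2, Stat3 and Socs3 were at least 2-fold higher in pretreated cells, none was 2-fold lower, and Jak1, Stat2 and Irf9 lay between. Among all 4994 genes with the same filter, 28.4% were at least 2-fold higher and 10.3% at least 2-fold lower, and among all 11674 genes without it 40.7% and 19%. The median log2 ratio of the 7 genes was 1.24, against 0.42 for the 4994 genes, whose 5th and 95th percentiles were -1.66 and 2.58. The 3 genes between the limits had a log2 ratio under that median of 0.42. An alternative chosen after the values were seen took the sense windows of each gene at any distance from a start. There, 2 of the 7 genes were at least 2-fold higher (Ifnar1 and Ifnar2) and the median log2 ratio was 0.04. Socs1, which is not among the 7, had a log2 ratio of -1.37 over these windows. That value rests on few cells: 2572 of its 2754 naïve sense tags were 3′ UTR tags from 3 cells. By cells the direction was the other way, with a share difference of 5.24 points.

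Counted as cells with a listed peak, the share was higher in pretreated cells for each of the 7 genes. How many of the 4994 genes also had a higher share was not counted, and their median, given below, was higher in pretreated cells too. In 5 of the 7 (Ifnar2, Jak1, Stat2, Stat3 and Irf9) the share was at least 20 percentage points higher in pretreated cells, as it was for 37.7% of all 4994 genes, and 2.4% of all genes were as much lower. The median difference of the 7 genes was 22.1 points, against 15.01 points over all genes. The count of 5 was 1 (Ifnar2) with exact matching of peaks to windows, 2 (Ifnar2 and Stat2) with peaks of a signal of at least 400, and 3 (Ifnar2, Stat2 and Irf9) with all cells of any depth. Fewer cells with a transcript and fewer transcripts per cell cannot be fully told apart here, because a low level also keeps a peak under the minimum.

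**Figure D1:**
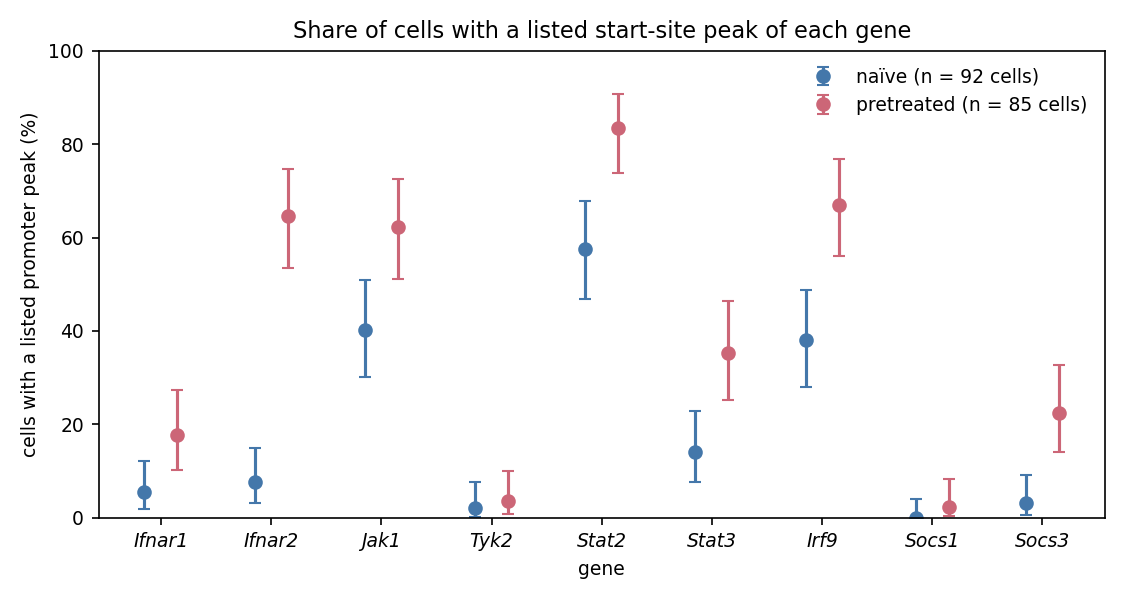
Share of kept cells (%, y axis) with a listed promoter peak of each of the 9 genes (x axis), in 92 naïve and 85 pretreated cells; points are shares and bars exact 95% binomial intervals. The pretreated point lies above the naïve point for every gene, with the widest gap for Ifnar2 (7.61% against 64.7%) and shares under 4% in both groups for Tyk2 and Socs1. Over all 4994 genes listed in 20 or more cells, the median share difference was 15.01 points, also higher in pretreated cells.

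**Figure D2:**
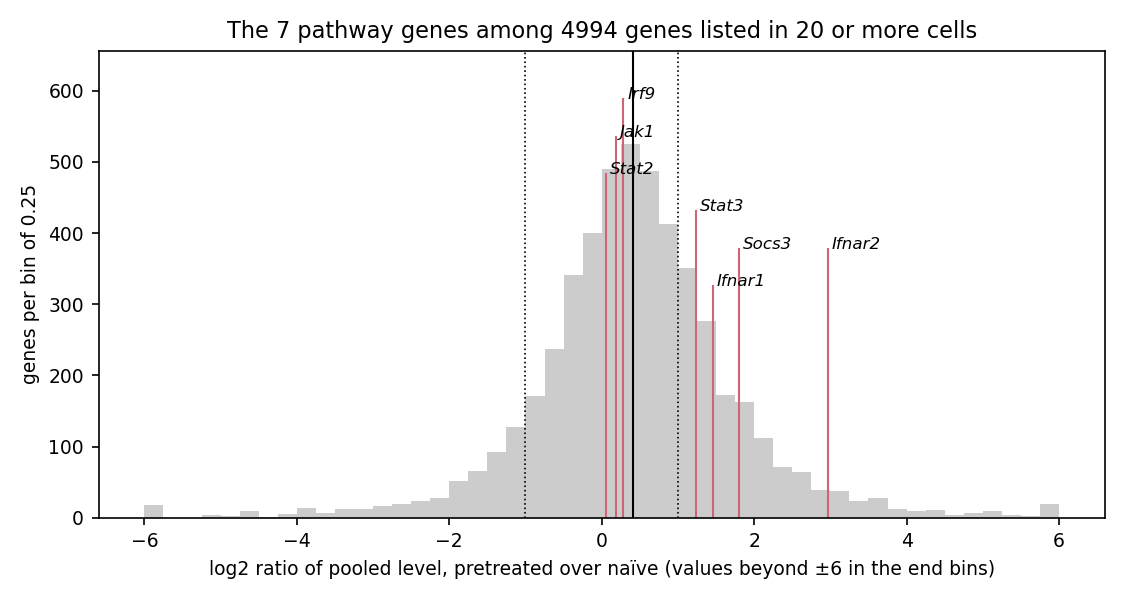
Distribution of the log2 ratio of pooled levels, pretreated over naïve (x axis), over the 4994 genes listed in 20 or more cells (y axis, genes per bin), with the 7 pathway genes as red lines of staggered height, the median of all genes as a solid black line and the 2-fold limits dotted. Stat2, Jak1 and Irf9 sit left of the median of 0.42, and Stat3, Ifnar1, Socs3 and Ifnar2 sit right of the upper limit.

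The receptor genes were rarely listed in naïve cells and more often in pretreated cells, and Ifnar2 had the largest difference in share of the 9 genes. Ifnar2, the chain that binds interferon with high affinity, was listed in 7 of 92 naïve cells (7.61%, 3.11 to 15.1) and in 55 of 85 pretreated cells (64.7%, 53.6 to 74.8). Its signal, in tags per 10000000 tags of a cell, ran from 221.4 over a median of 380.1 to 4629.4 in the 7 naïve cells and from 188.1 over 543.9 to 2953.9 in the 55 pretreated cells. The ranges overlapped, and the single naïve cell at the top lay above every pretreated cell. The difference in share was 57.1 points (44.2 to 67.2), at percentile 98.5 of the differences of all 4994 genes. The pooled level was 5.95 tags per 1000000 in naïve cells (5.62 to 6.29) and 46.5 in pretreated cells (45.8 to 47.3), a log2 ratio of 2.97 (2.88 to 3.05).

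That cell, naïve cell 54, held 745 of the 1209 naïve Ifnar2 promoter tags (61.6%), all in a window 606 bp downstream of the annotated start at chr16:91373560-91373709 (mm9). The same window held 171 tags from 1 pretreated cell. The other 23 listed windows of Ifnar2 formed a single site 10 to 226 bp after the start, with 464 tags in 6 naïve cells and 13175 tags in 55 pretreated cells. On that site alone, an alternative chosen after the values were seen, the log2 ratio was 4.33 (4.198 to 4.47), and without naïve cell 54 it was 4.34 over all Ifnar2 windows. Over sense windows at any distance the log2 ratio of Ifnar2 was 1.01. The direction was the same in each of these, and the size of the ratio was not.

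Ifnar1, the other receptor chain, was listed in 5 naïve cells (5.43%, 1.79 to 12.2) and 15 pretreated cells (17.6%, 10.2 to 27.4). Its signal ran from 258.2 over 394.7 to 2485.6 in naïve cells and from 216.3 over 632.1 to 1330.5 in pretreated cells, with overlap. The pooled level was 4.195 tags per 1000000 against 11.6, a log2 ratio of 1.46 (1.35 to 1.57), and 2.36 without naïve cell 54, which gave 46.9% of the naïve tags. Over sense windows at any distance it was 1.35. All Ifnar1 promoter tags in both groups started 13 to 73 bp after the annotated start, in 1 site. Of all Ifnar1 sense tags, 45.6% in naïve and 41.3% in pretreated cells lay more than 1000 bp from a start. Of the 15 pretreated cells with Ifnar1, 11 also listed Ifnar2 (73.3%), and of the 70 without Ifnar1, 44 did (62.9%). The intervals of these shares, 44.9 to 92.2 and 50.5 to 74.1, overlapped.

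**Figure D3:**
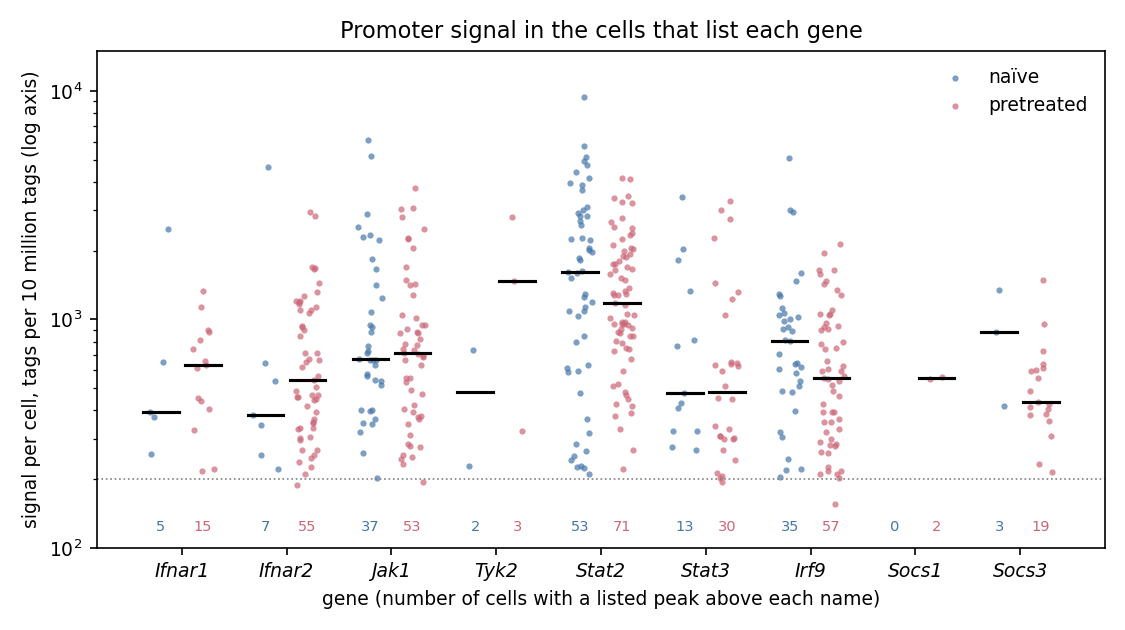
Promoter signal of each gene in each cell that listed it (y axis, tags per 10000000 tags of the cell, log scale; x axis, gene), with naïve cells in blue, pretreated cells in red, a black bar at the median, the number of listing cells under each column and the authors' minimum of 200 as a dotted line. The ranges of the groups overlap for all 8 genes listed in both, and the median of listing cells is lower in pretreated cells for Stat2, Irf9 and Socs3.

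The kinases differed from each other in how often they were seen at all. Jak1, which serves many cytokine receptors, was listed in 37 naïve cells (40.2%, 30.1 to 50.96) and 53 pretreated cells (62.4%, 51.2 to 72.6), a difference of 22.1 points (7.40 to 35.6). In the cells that listed it, the signal was alike in range: 202.3 over 671.4 to 6083.5 in naïve cells and 194.3 over 713.3 to 3746.4 in pretreated cells. The pooled Jak1 level was 48.7 tags per 1000000 against 55.4, a log2 ratio of 0.19 (0.15 to 0.22). That ratio was below 0 when the groups were scaled by the median of gene ratios (-0.23) and -0.01 with exact matching of peaks to windows, and it was 0.32 without naïve cell 54.

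Tyk2, the kinase bound to IFNAR1, was listed within 1000 bp of its start in 2 naïve cells (2.17%) and 3 pretreated cells (3.53%), and the difference of 1.36 points had an interval from -4.53 to 7.89. The naïve cells had signals of 227.9 and 736.1. The 3 pretreated cells had 323.5, 1469.7 and 2798.4. The pooled level was 0.654 tags per 1000000 against 2.63, a log2 ratio of 2.001 (1.74 to 2.28), which rests on these 5 cells. Most sense tags that the table gave to Tyk2 lay more than 1000 bp from its start, 97.6% of naïve and 94.1% of pretreated tags, in 26 naïve and 39 pretreated cells, and over windows at any distance the log2 ratio of Tyk2 was 0.68.

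The factors Stat2 and Irf9 were the most often listed of the 9 genes in pretreated cells, and their pooled levels differed little between the groups. Stat2, the STAT that is particular to interferon complexes, was listed in 53 naïve cells (57.6%, 46.9 to 67.9) and 71 pretreated cells (83.5%, 73.9 to 90.7), a difference of 25.9 points (12.6 to 37.96). In the listing cells its signal ran from 211.1 over 1620.4 to 9428.6 in naïve cells and from 220.5 over 1179.3 to 4175.9 in pretreated cells, so the pretreated median was 0.728 times the naïve one. More pretreated cells with a lower median gave nearly equal pooled levels, 106.8 and 110.8 tags per 1000000. The log2 ratio was 0.05 (0.03 to 0.08), and it was below 0 with promoter tags as the total (-0.12), with scaling by the median of gene ratios (-0.36), over sense windows at any distance (-0.10) and by the GENCODE table of the authors (-0.88). By the GENCODE table the share difference of Stat2 was -0.91 points. In that table the windows with 92.6% of naïve and 96.1% of pretreated Stat2 tags carried transcript names with no match to a gene symbol, so few Stat2 tags were left to compare.

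Irf9, the part of ISGF3 that recognises the ISRE, was listed in 35 naïve cells (38.04%, 28.1 to 48.8) and 57 pretreated cells (67.1%, 56.02 to 76.9), a difference of 29.02 points (14.3 to 41.97). Its signal ran from 205.0 over 806.6 to 5083 in naïve cells and from 156.2 over 551.4 to 2143.9 in pretreated cells. As with Stat2, the pretreated cells were more and their median was lower. The pooled Irf9 level was 39.98 tags per 1000000 against 48.7, a log2 ratio of 0.29 (0.25 to 0.33), or 0.43 without naïve cell 54, and below 0 with scaling by the median of gene ratios (-0.13). With peaks of a signal of at least 400 the Irf9 log2 ratio was -0.12 and the difference in share 8.30 points. With windows within 100 bp of an annotated start the log2 ratio of Irf9 was 3.34, because that limit leaves out the site that most naïve promoter tags came from.

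The start positions of Irf9 also differed between the groups. Such differences were not computed over all genes, so how common one of this size is was not tested. The annotated Irf9 starts lie 594 bp apart on the + strand of chromosome 14. Chaining windows within 50 bp of each other gave an upstream site at chr14:56222897-56223180 (mm9), centred 149 to 283 bp after the upstream start, and a downstream site at chr14:56223223-56223493, centred from 119 bp before to 2 bp after the downstream start. The upstream site held 6515 of 8129 naïve Irf9 promoter tags (80.1%, 79.3 to 81.01) in 31 cells and 5767 of 13978 pretreated promoter tags (41.3%, 40.4 to 42.1) in 26 cells. The downstream site held 340 naïve tags (4.18%, 3.76 to 4.64) in 3 cells and 5302 pretreated tags (37.9%, 37.1 to 38.7) in 31 cells. The upstream site thus held the most tags in both groups.

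Seen as levels, the upstream site had a log2 ratio of -0.67 (-0.72 to -0.62) and the downstream site 3.46 (3.31 to 3.63). The top pretreated cell gave 10.8% of the pretreated tags at the downstream site. Over 8 other settings, chosen after the values were seen, the downstream site's share of Irf9 tags was 25.3 to 44.9 points higher in pretreated cells, with 33.7 points as reported. The window with the most pretreated Irf9 tags, at chr14:56223321-56223470 and 21 bp before the downstream start, held 2418 tags in 10 pretreated cells and none in naïve cells. The Irf9 stretch printed above, read from RefSeq on its own build, ends at that downstream start. Another site 464 to 583 bp after the downstream start held 11.1% of naïve tags and 9.75% in pretreated cells.

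Most cells with Irf9 listed only 1 of these sites. Of the 35 naïve cells with Irf9, 29 listed the upstream site without the downstream site, 1 the downstream site without the upstream site, 2 both and 3 neither. Of the 57 pretreated cells, 19 listed the upstream site without the downstream one, 24 the reverse, 7 both and 7 neither. Where a site was listed, its median signal was similar in the groups: 637.4 and 595.1 at the upstream site in naïve and pretreated cells, and 479.8 and 515.7 at the downstream site. As a share of all kept cells, the upstream site was listed in 33.7% of naïve and 30.6% of pretreated cells, and the downstream site in 3.26% (0.678 to 9.23) and 36.5% (26.3 to 47.6). Called peaks of a cell had to be at least 300 bp apart, so positions of the sites that lie closer together than that could not both be listed in 1 cell.

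**Figure D4:**
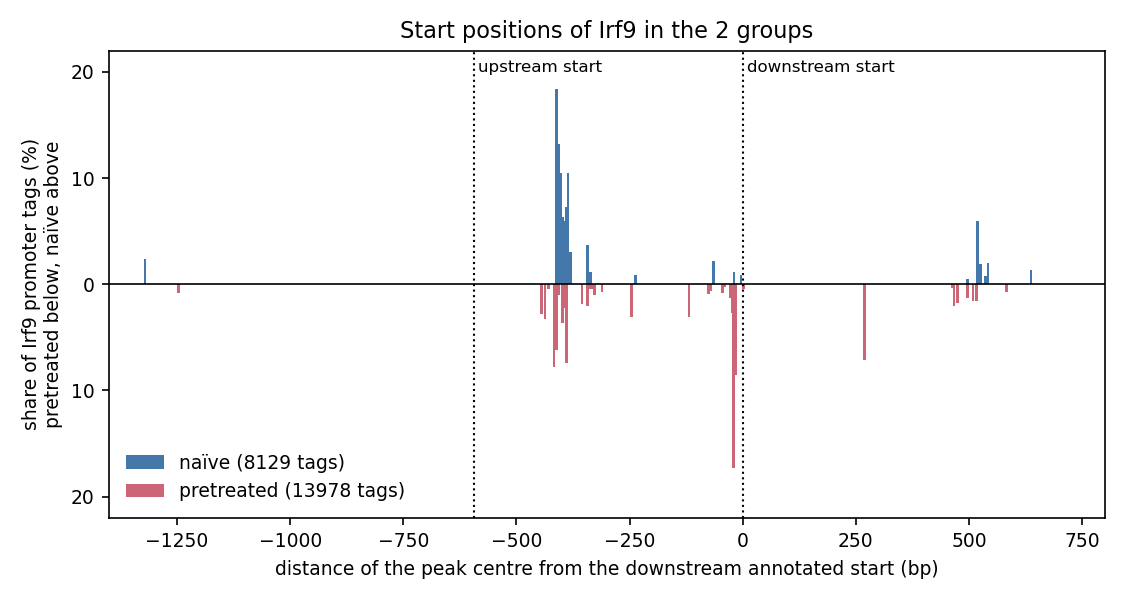
Share of Irf9 promoter tags (%, y axis, naïve upward and pretreated downward) by distance of the window centre from the downstream annotated start (bp, x axis), pooled over 8129 naïve and 13978 pretreated tags; dotted lines mark the annotated starts 594 bp apart. Naïve tags gather between the starts, at the upstream site with 80.1% of them, and pretreated tags are split between that site (41.3%) and the downstream start (37.9%).

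Stat3, a factor shared with interleukin-6 family receptors, was listed in 13 naïve cells (14.1%, 7.74 to 22.95) and 30 pretreated cells (35.3%, 25.2 to 46.4), a difference of 21.2 points (8.51 to 33.2). The signal of listing cells ran from 268.8 over 477.7 to 3423.9 in naïve cells and from 193.9 over 482.9 to 3285.2 in pretreated cells, so the medians of the groups were nearly equal. The pooled Stat3 level was 11.5 tags per 1000000 against 27.3, a log2 ratio of 1.24 (1.17 to 1.31). The ratio was under 2-fold with median-of-ratios scaling (0.83), with each cell thinned to 1122993 tags (0.86), with peaks on both strands (0.94) and with exact matching of windows (0.98), and it was -0.43 by the GENCODE table. Over sense windows at any distance it was 0.11, and without naïve cell 54 it was 1.62. All Stat3 promoter tags lay 63 to 213 bp after the start, in 1 site.

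The inhibitor Socs3, a feedback regulator of gp130 signalling, was listed in 3 naïve cells (3.26%, 0.678 to 9.23) and 19 pretreated cells (22.4%, 14.03 to 32.7), a difference of 19.1 points (9.52 to 29.3). The 3 naïve cells had signals of 417.7, 884.4 and 1351, and the 19 pretreated cells ran from 214.7 over 435.8 to 1492.9. All 3 naïve cells lay inside the pretreated range. The pooled level of Socs3 was 2.87 tags per 1000000 against 10.0, a log2 ratio of 1.80 (1.67 to 1.93), and over sense windows at any distance it was -0.05. Within 1000 bp, its main site lay 180 to 220 bp after the annotated start. That site held every naïve promoter tag and 88.5% of pretreated promoter tags, so windows within 100 bp listed Socs3 in neither group. Most Socs3 sense tags lay more than 1000 bp from a start, 93.9% of naïve and 78.02% of pretreated ones.

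Socs1, the main inhibitor of JAK kinases and the gene with paired ISRE letters above, was listed at 0 in the 92 naïve cells (exact upper limit 3.93% of cells) and in 2 of 85 pretreated cells (2.35%). Those 2 cells had signals of 546.2 and 559.7. One peak lay 502 bp after an annotated start and the other 979 bp before one, so neither was at the start itself. The difference in share, 2.35 points, had an interval from -2.003 to 8.18, and no fold is given against a group listed at 0. Beyond 1000 bp, sense tags of Socs1 were listed in 6 naïve and 8 pretreated cells.

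The window with the most tags could be compared where a gene had 100 or more tags in each group. Naïve and pretreated cells shared it for 4 of 8 (Jak1, Stat2, Stat3 and Socs3), where 24% of all 8073 such genes had the same one. With neighbouring windows chained into sites, the leading site by tags was the same for 7 of 8, all but Ifnar2, and for 84.4% of all genes. Counted by cells in place of tags, it was again 7 of 8, now all but Irf9, and 86.3% of all genes. The Stat2 window at chr10:127707539-127707688, 59 bp after the start, held 83.1% of naïve and 72.2% of pretreated promoter tags. The Jak1 window at chr4:100937753-100937902, 1 bp from the start, held 77.4% and 51.3%. The focus ratio, HOMER's fraction of tags near the middle of a peak, had a median of 0.968 over the peaks of the 9 genes in naïve cells and 0.918 in pretreated cells, against 0.956 and 0.897 over all promoter peaks.

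Counted per cell, a naïve cell listed a median of 2 of the 9 genes (0 to 6) and a pretreated cell a median of 4 (0 to 7). At least 3 were listed in 19 of 92 naïve cells (20.7%) and in 68 of 85 pretreated cells (80%). None was listed in 13 naïve cells and 1 pretreated cell. The number listed had a Spearman correlation of -0.10 with the total tags of a cell in naïve cells and -0.04 in pretreated cells, and of 0.30 and -0.01 with its number of peaks. Over all genes, the median number with a promoter peak was 1967.5 per naïve cell and 2932 per pretreated cell. The part of this general difference in the count of the 9 genes was not tested. These counts and correlations are descriptions over the cells of 1 sample.

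**Figure D5:**
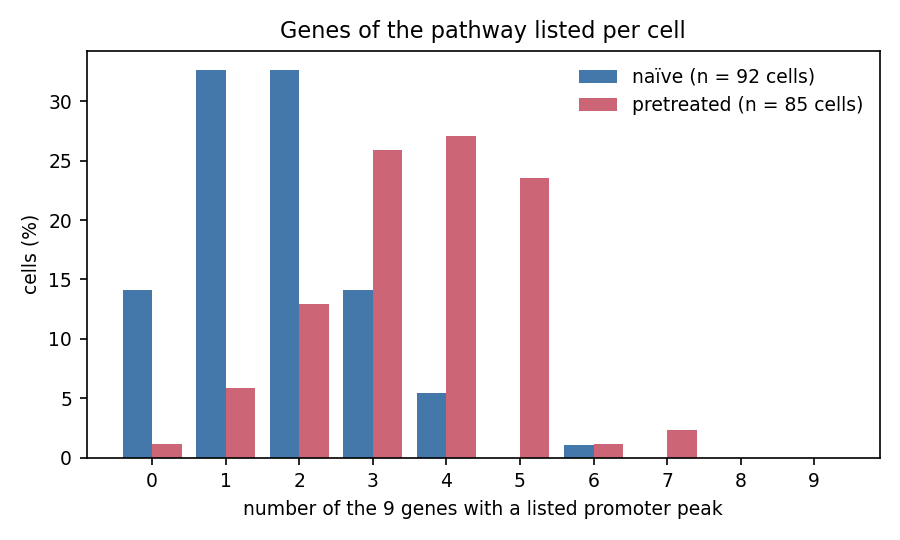
Share of cells (%, y axis) by the number of the 9 genes with a listed promoter peak (x axis), in 92 naïve and 85 pretreated cells. Naïve cells peak at 1 and 2 genes, and pretreated cells at 3 to 5, with medians of 2 and 4. Over all genes, medians of 1967.5 and 2932 were listed per cell.

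Stat2 and Irf9 were read in the same cells. In naïve cells, Irf9 was listed in 41.5% of the cells with Stat2 and in 33.3% of those without. In pretreated cells it was listed in 66.2% and 71.4%. The intervals of each pair overlapped. Both genes were listed in 22 of 92 naïve cells and 47 of 85 pretreated cells, and neither in 26 and 4. Ifnar2 was listed in 69.01% of pretreated cells with Stat2 (56.9 to 79.5) and in 42.9% of those without (17.7 to 71.1), again with overlap.

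The signal of the 9 genes was also set beside that of 12 reference interferon targets in the same cells. The Spearman correlation between the summed signal of the 9 genes and that of the targets was 0.27 over 92 naïve cells and 0.28 over 85 pretreated cells, a weak relation given only as a description. For Irf9 alone it was 0.11 and 0.24, and for Stat2 alone 0.18 and 0.14. It was -0.09 and -0.08 for Socs3, and 0.00 and 0.02 for Stat3. The median summed target signal of naïve cells was 6278.3 where Stat2 was listed and 2689.6 where it was not. In pretreated cells these were 43319.5 and 38646.9. Jak1 was the only gene with a highest mean correlation to another gene over 0.3 among 2801 compared genes, and the closest were Atp5b, with 0.31, Sept11, with 0.27, and Mtpn, with 0.27. Stat2 and Irf9, the other genes compared in this way, stayed under 0.3.

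The other genes of the pathway were read the same way. Of 36 other receptors, kinases, STATs, SOCS proteins and regulators, 30 were listed in at least 1 kept cell and 14 in 20 or more. Of these 14, 7 were at least 2-fold higher in pretreated cells and 1 was at least 2-fold lower, with a median log2 ratio of 0.98. Among all 4994 genes with the same filter, 28.4% were higher and 10.3% lower by as much, with a median of 0.42. Among receptors, Il10rb, shared by interleukin-10 and lambda interferon receptors, had a log2 ratio of 2.49 (6 and 31 cells) and Il13ra1 one of 1.38 (8 and 21 cells). Stat6, the STAT that serves interleukin-4, had 1.76 (14 and 35 cells). Of the regulators, Usp18, which displaces JAK1 from IFNAR2, had 1.62, from 326.3 to 1003 tags per 1000000 and from 76 to 84 cells. Pias4, a SUMO ligase, had 1.82, and the phosphatase Ptpn1 had 1.76. Socs6 was the gene that was lower, at -1.79 with 14 and 9 cells.

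The interferon gamma receptor chain Ifngr1 (0.08) and the interleukin-6 family receptors Il6st (0.19) and Osmr (0.16) were near 0. Jak2 and Jak3 were not listed in naïve cells and were listed in 2 pretreated cells each. The 12 reference interferon targets all passed the filter, 9 of them at least 2-fold higher and none 2-fold lower, with a median log2 ratio of 1.81. Isg15 (-0.28) and Mx1 (-0.48) were below 0. Over all 4994 genes with the filter, 28.4% were at least 2-fold higher and 10.3% at least 2-fold lower, with a median of 0.42.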

How the data were processed

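The deposited peak files, 1 per cell, hold, per the file headers, start-site peaks called by the authors in each cell with HOMER findPeaks, 150 bp wide and at least 300 bp apart. A peak needed 200 tags per 10000000 tags of the cell and 2-fold enrichment over the 10000 bp around it. The deposited signal is the tag count scaled to 10000000 tags, and the focus ratio deposited by the authors is a fraction from 0 to 1. Of the 485 peaks of the 9 genes, 4 had a listed signal under 200, the lowest at 156.2. Per the submitters' processing notes, Bowtie2, HOMER and build mm9 were used. The labels give polyA RNA and Nextera XT libraries, and duplicate handling is not given in the sources used here, so a tag is a read.

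Tags were recovered as signal times header total divided by 10000000. Each peak was given to the window of the authors' RefSeq table that started within 2 bp of it. Peaks on the gene's strand counted, with the strand from GENCODE vM21. Cells under 10% of the median total (2305628 tags) were left out. Sums carry exact Poisson intervals, shares Clopper-Pearson intervals, ratios exact conditional intervals and differences of shares Newcombe intervals, all at 95%. A 2-fold ratio or 20 points of share was called, over genes listed in at least 20 kept cells. Leading windows were compared where naïve and pretreated cells each had 100 or more tags of a gene, and windows within 50 bp were chained into sites. The planned design assumed raw counts, and the recovered tags took their place. A pair of matrices with 384 unnamed columns in all was not used. Python 3.11.15 with numpy 2.4.6, pandas 2.3.3 and scipy 1.17.1 was used. The pooled ratio calls were tested on simulated counts with no spread between cells, and the matching of peaks to windows on made-up peaks.

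All 9 genes are named. Of the other pathway genes, those past 2-fold with the filter are named, except 1 that is not reported here, and those under it that are given (Ifngr1, Il6st, Osmr, Jak2 and Jak3) were chosen after their values were seen. For each of the 9 genes found in 20% or more of naïve and of pretreated cells, the 3 genes with the highest mean Spearman correlation are named where the highest reached 0.3. The genes and lists were chosen with earlier results of these data known. Of the marker lists, 1 of 5 endothelial and 3 of 5 neural genes were listed, in 0 and 5 naïve cells and in 1 and 12 pretreated cells. Of 11 immediate early genes, 9 passed the filter, 4 at least 2-fold higher and 1 at least 2-fold lower, with a median log2 ratio of 0.86. Over all 4994 genes with the filter these were 28.4%, 10.3% and 0.42. Alternatives covered scaling, filters, distance, strand, annotation, peak signal, matching, depth and single cells.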

Additional observations from a re-analysis of the deposited data

Results flagged for a closer look

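Signal of these genes outside the promoter windows was looked at because the main comparisons above do not use it, and its values are given here without an explanation. Sense peaks more than 1000 bp from any annotated start held 75.5% of all naïve sense tags of Ifnar2, 71.8% of those of Stat3 and 55.3% of those of Irf9. In pretreated cells these shares were 4.45%, 38.3% and 46.8%. For Ifnar2 the naïve share came mostly from 3632 intron tags in 3 cells. For Tyk2 the share was 97.6% in naïve and 94.1% in pretreated cells, with 4044 and 5707 of these tags in exon windows and 942 and 4253 in intergenic windows. For Socs1 it was 100% and 83.2%, and for Socs3 93.9% and 78.02%. Of these distant Socs3 tags, 80.4% and 82.1% lay in the 3′ UTR or at the transcript end, in up to 32 naïve and 30 pretreated cells. The origin of these distant peaks was not tested.

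Antisense peaks within 1000 bp of a start were few. In naïve cells they held 268 tags for Jak1, 72 for Tyk2, 276 for Stat2, 572 for Stat3, 71 for Irf9 and 58 for Socs1. In pretreated cells they held 141 tags for Ifnar1, 321 for Jak1, 62 for Stat2, 55 for Stat3, 308 for Irf9 and 463 for Socs3. Each value came from 1 to 4 cells.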

How the results depend on the processing

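Of the genes with the filter, 3 or 4 were at least 2-fold higher and 0 lower under each of 12 alternatives (others, chosen after seeing the data, follow), and the median difference in share ran from 12.03 to 25.8 points. Changes of the total, the scaling or the weight of cells cannot alter a share. Thinning, which gave 25.8, kept every peak with a tag left and did not apply the authors' minimum again. The genes at least 2-fold higher were not always the same. Within 100 bp they were Ifnar1, Ifnar2, Stat3 and Irf9, and Socs3, not listed there, is left out of that median log2 ratio. Where 3 were higher, Stat3 was not among them. The median log2 ratio of 1.24 became 1.07 with promoter tags as the total, 0.83 with median-of-ratios scaling (which shifts every ratio down by 0.42), 1.09 with equal weight for each cell, 1.39 within 100 bp, 0.94 on both strands, 0.28 by the GENCODE table, 1.15 with a signal of at least 400, 1.38 without the top cell of each gene and group, 0.98 with exact matching and 0.86 after thinning to 1122993 tags, which left 76 and 83 cells. Of the alternatives chosen after seeing the data, leaving out naïve cell 54 gave a median of 1.62, and sense windows at any distance gave 0.036, with 2 of the genes at least 2-fold higher, 4 other pathway genes higher and Socs3 at -0.050. By the GENCODE table Stat2 had a share difference of -0.91 points and Stat3 a log2 ratio of -0.43. The same leading window was found for 2 genes by the GENCODE table and for 7 with chained sites by tags or, chosen after seeing the data, by cells. Other pathway genes at least 2-fold higher numbered 4 with 40 or more cells and 14 with no filter, against 7, and those lower 0 and 5, against 1. With no filter, 40.7% of 11674 genes were higher and 19% lower. No paired analysis was possible because cells carry only a number and each group counted as 1 sample. Promoter values of Socs1, Tyk2 and naïve Ifnar1 and Socs3 rest on 5 cells or fewer in a group.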
